A study of Saccharomyces cerevisiae with 262 samples.

Results

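The 4 ASP3 genes of budding yeast, ASP3-1, ASP3-2, ASP3-3 and ASP3-4, are copies of one gene, and they are described here in a vineyard strain, a laboratory strain and the haploid progeny of their cross. They are 4 of 5605 genes that had at least 1 row of the array carrying their name alone. They were chosen with their values known, because their ratios in the vineyard strain were among the lowest of the array, so their levels in the parents are a description and carry no test. The 3 groups were RM11-1a (RM), a wild isolate from a vineyard, with 12 dye-swap pairs of arrays under 6 replicate numbers; segregants, haploid progeny of BY4716 and the wild strain, with 226 arrays in pairs, 1 pair for each strain; and BY4716 (BY), a haploid laboratory strain isogenic to S288c, with 6 pairs. Every array set the strain's own RNA against a reference pool of BY4716 RNA, in 262 arrays in all. The labels name no medium, growth stage or date, and do not say whether replicates of a parent were separate cultures.

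ASP3 encodes a secreted L-asparaginase of the cell wall and periplasm, which splits asparagine outside the cell into aspartate and ammonium. It is known as a gene under nitrogen catabolite repression: transcription is low on good nitrogen sources and goes up when nitrogen runs short. The other yeast asparaginase, the product of ASP1, works inside the cell and is made constitutively. In the laboratory strain the ASP3 copies lie next to the ribosomal DNA repeats on chromosome XII. In the gene order of the R64 assembly they run as ASP3-1 (YLR155C), ASP3-2 (YLR157C), ASP3-3 (YLR158C) and ASP3-4 (YLR160C), with the reading frame YLR156W between ASP3-1 and ASP3-2, further frames, those of a Ty element among them, between ASP3-2 and ASP3-3, and YLR159W between ASP3-3 and ASP3-4. The copies are near-identical, so each of the 4 rows may have read several of them, and the probe sequences were not used here.

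Each value below is a log2 ratio of own RNA over the BY4716 pool, the mean of the 2 arrays of a dye-swap pair. The direction is likely rather than stated, since it was set by LEU2, URA3, LYS2, HO and the mating-type genes. The base of the logarithm was taken from the range of the values. An array gave 3597 to 6581 values, with a median of 6488 on RM arrays, 6341 on segregant arrays and 4756 on BY arrays. The number of arrays limits the precision, and the signal over background is not used here.

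All 4 copies stood far below the reference pool in RM and close to it in BY. ASP3-1 measured −6.24, −6.40, −6.79, −7.18, −6.65 and −6.07 in RM replicates 1 to 6, against 0.11, 0.12, 0.15, 0.0046 and 0.081 in BY replicates 1 to 5, with BY replicate 6 missing. Every RM replicate lay more than 6 log2 units below the pool, and the groups did not overlap. ASP3-2 measured −8.28, −6.97, −7.02, −7.83, −5.70 and −5.49 in RM replicates 1 to 6, against −0.15, −0.18, 0.15, 0.021, 0.0043 and 0.075 in BY replicates 1 to 6. RM replicates 5 and 6 were the highest of the RM values for this copy, and the groups again did not overlap. ASP3-3 measured −6.96, −6.85, −7.56, −7.72, −7.20 and −10.40 in RM replicates 1 to 6, against 0.10, 0.14, 0.13, 0.021, 0.074 and 0.13 in BY replicates 1 to 6. RM replicate 6 stood apart from the other RM replicates here, while the same replicate was the highest RM value for the other 3 copies. ASP3-4 measured −5.08, −4.70, −5.04, −5.60, −4.37 and −3.79 in RM replicates 1 to 6, against 0.13, −0.0087, 0.015 and 0.087 in BY replicates 3 to 6. It was the least reduced of the copies in all 6 RM replicates, and its groups did not overlap either. In a culture, fewer cells with a transcript and less transcript per cell cannot be told apart. Whether RM carries the sequences that these rows read was not tested, as no DNA data were used here.

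The RM mean minus the BY mean was −6.65 for ASP3-1, −6.87 for ASP3-2, −7.88 for ASP3-3 and −4.82 for ASP3-4. The mean of the copies was taken over those with a value, as BY replicates 1 and 2 lacked ASP3-4 and BY replicate 6 lacked ASP3-1. This mean was −6.50 ± 0.38 in RM and 0.055 ± 0.052 in BY (SD, n = 6 each), a difference of −6.55. Quantile normalization between pairs, which sets the pairs to a shared distribution of values, gave −4.36 for the same difference. Of the 6618 rows with a mean in RM, ASP3-3 was the lowest, ASP3-2 the second, ASP3-1 the sixth and ASP3-4 the fifteenth from the bottom, and 22 rows lay under −4. Transcripts of comparable depth included LEU2 at −5.93, STE3, the a-factor receptor of alpha cells, at −5.80, and URA3 at −4.87. For scale, 1478 of 2639 rows tested between the parents (56%) differed at a limma adjusted p under 0.05, 919 (34.8%) higher and 559 (21.2%) lower in RM. Of the 4 copies, 3 had enough BY values to enter that fit, and ASP3-4, with 2 BY replicates missing, did not; since the copies were chosen on this contrast, nothing is read from their part in it.

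**Figure D1:**
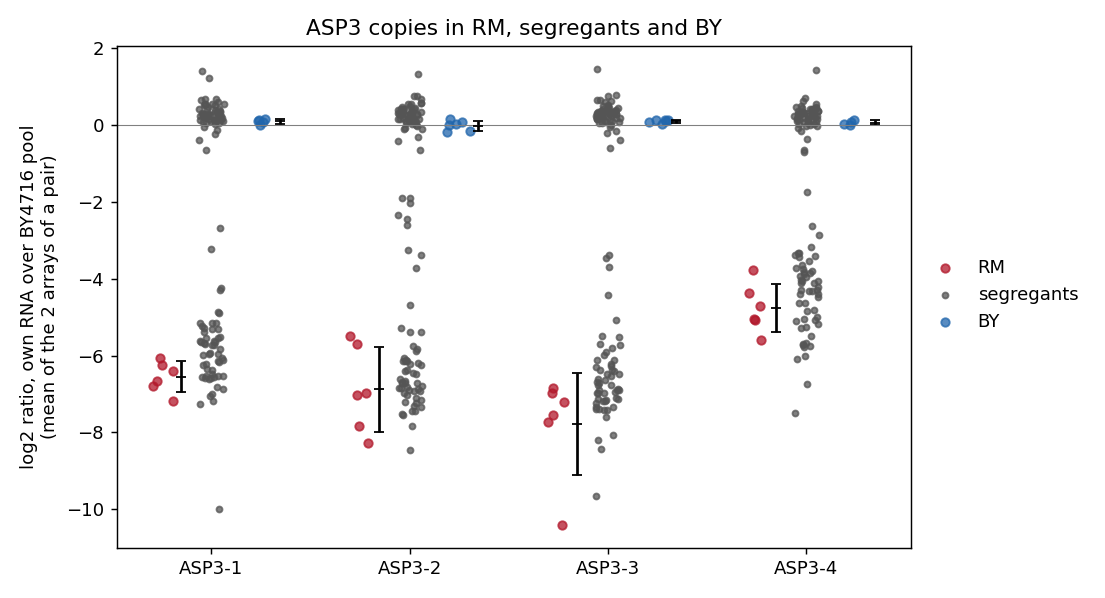
Log2 ratio of own RNA over the BY4716 pool for each ASP3 copy, with RM replicates (red), segregants (grey) and BY replicates (blue); each point is the mean of a dye-swap pair, or of the repeated pairs of an RM number, and black bars give the mean and SD of the parents. RM replicates lie between −10.40 and −3.79, BY replicates between −0.18 and 0.15, and segregants form an upper and a lower set with few strains between.

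The rows named for reading frames between and beside the copies did not read as low in RM as the copies did. These rows were picked out after their values were seen. YLR156W measured −0.71 ± 0.19 in RM (SD, n = 6), against −0.82 and −0.19 in the 2 BY replicates measured, so the groups overlapped. YLR159W measured −0.71 ± 0.22 in RM (SD, n = 6) and 0.026 ± 0.077 in BY (SD, n = 5), with no overlap. YLR161W, on the far side of ASP3-4, measured −0.35 ± 0.14 in RM (SD, n = 6) and 0.026 ± 0.065 in BY (SD, n = 4), also with no overlap. YLR162W, beyond YLR161W, went the other way, with −0.12 ± 0.11 in RM (SD, n = 6) and −0.54 ± 0.19 in BY (SD, n = 4). It was higher in RM, again with no overlap. None of these entered the fit. Values of YLR156W, YLR159W and YLR161W were missing in more segregants than those of any ASP3 copy. Whether these rows could show a drop as deep as that of the copies was not tested. Whether they read one another was not tested either, as the probe sequences were not used. Their ratios therefore do not show whether RM carries or transcribes the frames at these positions.

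Within a parent, the dye that carried the strain's own RNA moved the ratio by less than the difference between the parents. In BY the Cy5 array read higher than the Cy3 array in 5 of 5 pairs for ASP3-1, 6 of 6 for ASP3-2, 6 of 6 for ASP3-3 and 4 of 4 for ASP3-4, with median gaps of 0.44, 0.35, 0.42 and 0.26. In RM it was higher in 6, 9, 4 and 8 of 12 pairs, so no dye led throughout. The lowest single arrays in RM read −9.57 for ASP3-1, −11.13 for ASP3-2, −11.98 for ASP3-3 and −7.35 for ASP3-4. The highest RM array of any copy read −3.0, for ASP3-4, and the lowest BY array −0.71, for ASP3-2, so no single array of a parent crossed over.

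The segregants were assigned, copy by copy, to the parent whose mean was closer. The mean of the copies used those with a value, and not every segregant had every copy. Among those nearer RM, 9-1-d rested on ASP3-2 and ASP3-3, and 7-5-d and 13-1-a lacked ASP3-4. On the mean of the copies, 55 were nearer RM and 58 were nearer BY, which is 51.3% nearer BY (exact Clopper-Pearson 95% interval 41.7% to 60.8%, for counting error only). The 55 nearer RM had a lowest, median and highest value of −7.16, −5.83 and −3.42, and the 58 nearer BY of −3.13, 0.28 and 1.41. The widest empty stretch between neighbouring strains ran from −3.13 to −0.64. Taken alone, ASP3-1 was nearer BY in 57 of 110 segregants (51.8%, 42.1% to 61.4%), ASP3-2 in 63, with 48 nearer RM (56.8%, 47% to 66.1%), ASP3-3 in 60, with 52 nearer RM (53.6%, 43.9% to 63%) and ASP3-4 in 55, with 52 nearer RM (51.4%, 41.5% to 61.2%). All 5 intervals contain an equal split. Segregants nearer BY did not sit on the BY replicates: 45 of the 58 lay above every BY replicate, 5 lay among them and 8 below. The highest BY replicate was 0.14 on this mean.

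The copies went together in most strains. Of the segregants with all 4 measured, 44 had every copy nearer RM, 53 had every copy nearer BY and 7 were split. Among segregants nearer RM the copies followed each other loosely, with Pearson r between −0.28 and 0.49 over 51 to 54 strains and median absolute gaps between 2 copies of 0.65 to 2.65. Spearman rho ran from 0.019 to 0.52 there. The lowest r and rho were those of ASP3-2 with ASP3-4, whose order differed with the label number, as described below. Among segregants nearer BY the copies lay closer together, with r between 0.88 and 0.97 and Spearman rho between 0.75 and 0.93 over 54 to 57 strains, and median absolute gaps of 0.029 to 0.065. That set includes segregant 21-1-d, described below, which lay far under the rest; without it and the 2 other strains of low array correlation r was 0.76 to 0.93. These correlations are descriptions, the copies share each strain's arrays, and a row may read several of them.

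The 2 arrays of a pair disagreed most often where the ratio was low. They lay over 3 log2 units apart in 3 pairs for ASP3-1, 11 for ASP3-2, 7 for ASP3-3 and 6 for ASP3-4, in 18 segregants, of which 17 were nearer RM. In 2, 5, 3 and 2 of these pairs one array read above −1 and the other far below. In segregant 7-7-c, ASP3-1 read −0.16 in Cy5 and −5.21 in Cy3, and ASP3-3 read 0.015 and −6.79, while both arrays put ASP3-2 near −6. In 9-1-d the reverse held: ASP3-2 read −7.36 in Cy5 and −0.065 in Cy3, and ASP3-3 read −7.23 and −0.19. In 17-1-a the Cy3 array read −0.79 for ASP3-2 and −0.13 for ASP3-4, against −5.72 and −3.35 in Cy5. Single copies of such strains had pair means between the parents that neither array had measured.

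**Figure D2:**
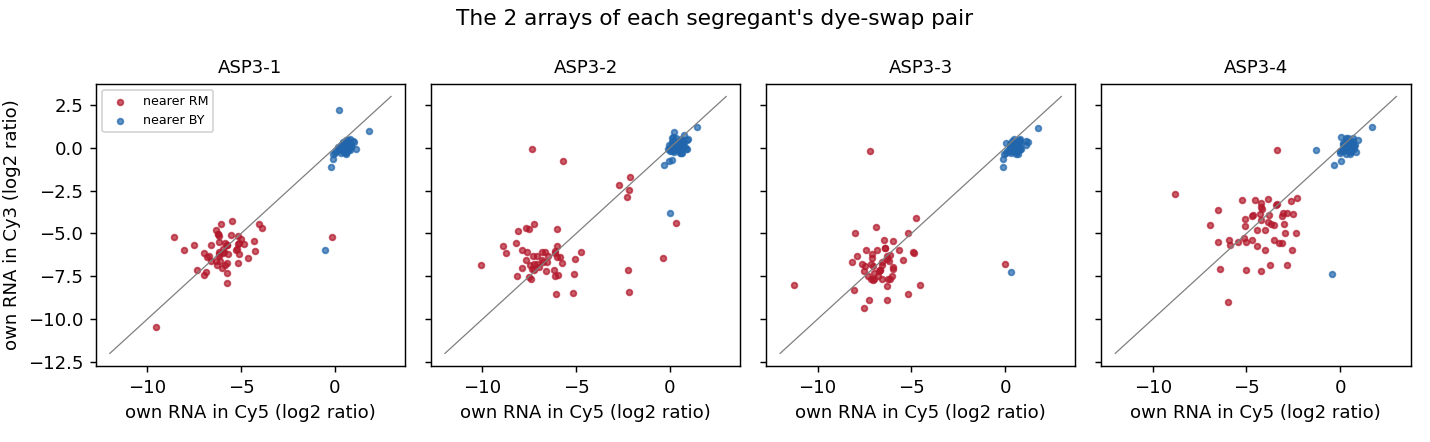
Log2 ratio of each ASP3 copy on the array with own RNA in Cy5 (horizontal) and in Cy3 (vertical), 1 point for each segregant, red where the mean of the copies is nearer RM and blue where it is nearer BY; the grey line marks equal values. Most points form a compact upper set and a wide lower set, and points far from the line are pairs whose arrays disagree, 11 of them over 3 log2 units for ASP3-2.

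Segregant 21-1-d was a special case. Its Cy5 array read −0.52, 0.33 and −0.45 for ASP3-1, ASP3-3 and ASP3-4 and −0.0031 for ASP3-2, whereas its Cy3 array read −5.96, −7.25, −7.38 and −3.81 for the same copies. Its 2 arrays correlated at r = 0.080 across rows, the lowest of all segregant pairs, whose median was 0.73 and highest 0.90, and LEU2 also differed between them, at −0.20 and −5.55. The other pairs under 0.2 were 23-2-d (0.15) and 22-5-d (0.16). The Cy5 array of 22-5-d correlated at 0.80 with the Cy3 array of 23-2-d, and the Cy5 array of 23-2-d at 0.80 with the Cy3 array of 22-5-d; no such partner was found for 21-1-d, whose arrays reached at most 0.14 and 0.34 with those of any other segregant. Without these 3 strains the share nearer BY on the mean was 50%, against 51.3% with them.

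In 4 segregants, 21-4-d, 22-2-d, 23-5-d and 26-1-d, ASP3-2 alone stood closer to BY, and there both arrays agreed. ASP3-2 read −2.30 and −2.89 in 21-4-d, −2.17 and −2.49 in 22-2-d, −2.71 and −2.18 in 23-5-d and −2.11 and −1.69 in 26-1-d, in Cy5 and in Cy3. The pair means of the other 3 copies in these strains ran from −7.49 to −5.68. All 4 strains carry a label whose first number is 21 or more, which led to a split of the segregants by that number, made after the values were seen; the labels do not say what the number stands for.

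Among segregants nearer RM, the order of ASP3-2 and ASP3-4 differed with the label number. In the 6 strains labelled 21 to 26, ASP3-2 had a lowest, median and highest value of −5.29, −2.52 and −1.90, against −8.46, −6.70 and −2.03 in 49 strains labelled 1 to 20. ASP3-4 had the opposite shift, with −7.49, −5.90 and −5.68 in the 6 strains, against −6.08, −4.17 and −1.74 in 46 strains. The ASP3-4 value minus the ASP3-2 value was below 0 in 6 of 6 strains labelled 21 to 26 (median −3.78) and above 0 in 46 of 46 strains labelled 1 to 20 (median 2.53). In RM it was above 0 in 6 of 6 replicates, from 1.33 to 3.20. These are differences of pair means, and in 21-5-c and 22-4-d, among the 6 strains, the arrays disagreed. There ASP3-2 read −2.18 and −2.26 in Cy5, against −8.39 and −7.12 in Cy3. On the Cy3 arrays ASP3-4 read −5.40 and −4.51, so the order was reversed. ASP3-1 and ASP3-3 showed no such exchange, with medians of −6.38 and −6.46 in the 6 strains, against −5.93 and −6.82 in those labelled 1 to 20. Among segregants nearer BY, the 3 strains of low array correlation left out, the medians of ASP3-2 and ASP3-4 were 0.32 and 0.35 in 9 strains labelled 21 to 26, against 0.27 and 0.22 in 44 and 43 strains labelled 1 to 20. The part of array batch in this was not tested, because no date or array lot was used here. Without the 18 segregants labelled 21 to 26, ASP3-2 was nearer BY in 50.5%, against 56.8% with them.

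**Figure D3:**
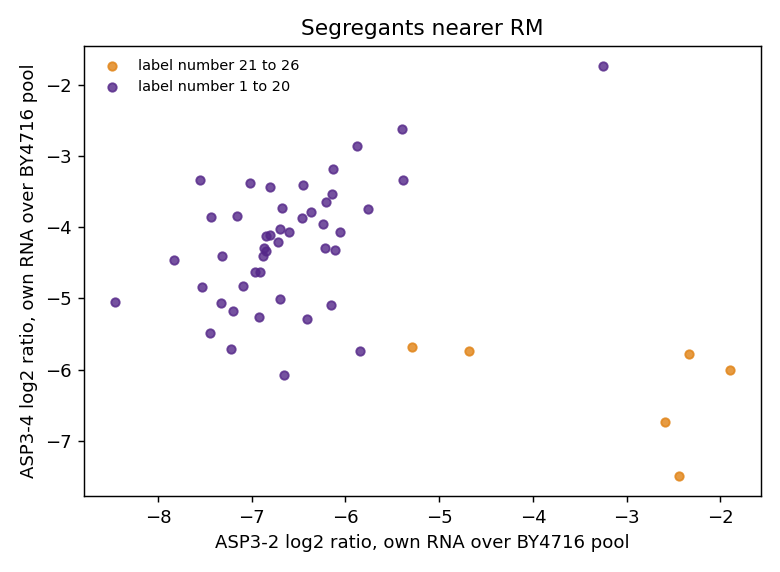
ASP3-2 (horizontal) and ASP3-4 (vertical) log2 ratios of segregants nearer RM on the mean of the copies, with label numbers 21 to 26 in orange and 1 to 20 in purple; 21-1-d is not among them, as its mean is nearer BY. ASP3-2 is the higher of the copies in the 6 orange strains and ASP3-4 in the 46 purple strains. The sets nearly touch: orange 21-5-c lies at −5.29 and −5.68, and purple 9-2-d at −5.84 and −5.73.

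Whether the ASP3 class went with other parental differences was asked by crossing it with marker transcripts assigned to a parent in the same way. The share of segregants that resembled the same parent for ASP3 and for the marker was 46.8% for HAP1 (52 alike and 59 not), a haem-responsive activator encoded farther along chromosome XII, 54.9% for LEU2 (62 and 51), 50% for URA3 (56 and 56), 49.6% for HO (56 and 57) and 53.1% for STE3 (60 and 53). Two-sided Fisher's exact tests gave p between 0.35 and 1, and adjusted p of 0.96 to 1 over the 5 markers, so no association was detected. The exact 95% intervals ran from 37.3% to 56.6% for HAP1 and from 40% to 64.2% over the other 4. For HAP1, 16 segregants were nearer RM and 36 nearer BY on both transcripts. Another 39 were nearer RM for ASP3 alone and 20 for HAP1 alone. HAP1 thus placed far more segregants nearer BY than nearer RM. Whether the 2 genes are inherited together was not tested, as no genotypes were used here. LYS2 had no BY pair with both arrays; with a value from either array it gave 55.1% (59 alike and 48 not, exact p = 0.33, adjusted p = 0.86 over 6 markers).

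The transcripts most like ASP3 over the segregants were ranked by their Pearson r with the mean of the copies, as a description; each of those named was measured in at least 91 segregants, and all share the arrays that gave the ASP3 values. Of 5068 named genes measured in enough segregants, 28 (0.55%) had an r over 0.3 in absolute size and 7 over 0.5, with a median of 0.084. GEX1, a glutathione exchanger encoded on chromosome III, stood first at 0.76 (n = 100). Its near-identical relative GEX2 may have shared the signal. GEX1 had a lowest, median and highest ratio of −3.72, −2.08 and −0.73 in 48 segregants nearer RM, against −1.67, −0.56 and −0.10 in 52 nearer BY. In the parents it measured −4.88, −3.42, −2.52, −3.19, −2.81 and −2.84 in RM, against 0.090 in the 1 BY replicate with a value. Within either set of segregants its r with ASP3 was close to 0, at −0.041 nearer RM and 0.055 nearer BY, so the likeness lay in the step between the sets.

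The next in rank lay on chromosome XII close to the cluster. PUS5, a pseudouridine synthase of mitochondrial ribosomal RNA, followed at 0.56 (n = 99), with a median of −0.40 in segregants nearer RM, against −0.16 in those nearer BY. In RM it measured −0.52 ± 0.082 (SD, n = 6), and no BY replicate had a value. RRN5, a subunit of the factor that activates RNA polymerase I at the ribosomal DNA, had r = 0.37, and RFX1, the repressor of DNA damage-inducible genes, 0.32. The remaining high ranks were CPP2 (0.31), IMA1, an isomaltase (0.30), SWM1, a subunit of the anaphase-promoting complex (0.29), MAP1, a methionine aminopeptidase (0.29), ASP1 (0.29) and PMT6, a protein mannosyltransferase (0.29). These values are low, and over the alternative settings PMT6 went down to 0.093.

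The transcripts that ran opposite to ASP3 were led by PCD1 at −0.72 (n = 91), a peroxisomal nucleotide pyrophosphatase, and TAG1 at −0.71, which is tied to the end of autophagy. Both lie near the cluster. PCD1 had medians of 0.18 in segregants nearer RM and −0.18 in those nearer BY, and its r was −0.41 within segregants nearer RM and 0.0047 within those nearer BY. It measured 0.40 ± 0.15 in RM (SD, n = 6), against 0.17 in the 1 BY replicate with a value, and was not tested between the parents. TAG1 had medians of 0.31 in 49 segregants nearer RM and −0.061 in 55 nearer BY. Between the parents TAG1 differed by 0.11 (SE 0.065, limma adjusted p = 0.16), which did not pass the test. YLR179C, also nearby, had r = −0.55 and medians of 1.60 in segregants nearer RM and 0.16 in those nearer BY, and it was called higher in RM by 1.27 (SE 0.056, limma adjusted p = 5.4e-10).

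Ribonucleotide reductase, which makes the building blocks of DNA, supplied the other 2 of the 5 lowest. RNR2, its small subunit on chromosome X, had r = −0.57, with medians of 0.51 in 54 segregants nearer RM and 0.095 in 57 nearer BY. RNR3, a damage-inducible large subunit on chromosome IX, had r = −0.53 (n = 97), with medians of 0.72 in segregants nearer RM and −0.13 in those nearer BY. The other subunits were looked up after these values were seen: RNR4 had r = −0.36 and RNR1 −0.013. Of these, RNR2 was called higher in RM by 0.38 (SE 0.050, limma adjusted p = 3.0e-05) and RNR4 by 0.16 (SE 0.047, limma adjusted p = 0.011), RNR1 differed by −0.046 (limma adjusted p = 0.36), and RNR3 was not tested. The gene of RFX1, known as a repressor of RNR2, RNR3 and RNR4, is one of those near the cluster. The medians of RFX1 were −0.17 in segregants nearer RM and −0.088 in those nearer BY. Within these sets its r with ASP3 was 0.090 and −0.093. Between the parents RFX1 was not tested, and RM (−0.092 to 0.072) overlapped BY (−0.060 to 0.25, n = 4). Any part of RFX1 in the ribonucleotide reductase differences was not tested.

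The likeness faded with gene order along chromosome XII. Among the 33 measured genes within 20 protein-coding genes of the cluster in the R64 gene order, 9 had an r over 0.3 in absolute size and the median was 0.15; among the 394 farther genes 0 did and the median was 0.085. Both signs occurred in the near set, whose width was picked with the values known. The 4 nearest measured genes on the ASP3-1 side were PCD1, YLR152C (r = −0.25), ACS2 (0.040) and RNH203 (0.044), and on the ASP3-4 side YLR162W (−0.092), SHH4 (0.13), PUS5 and SEC10 (0.17). ACS2, an acetyl-CoA synthetase, was called higher in RM by 0.97 (SE 0.039, limma adjusted p = 2.0e-10), and RNH203, a subunit of ribonuclease H2, was not called (−0.027, limma adjusted p = 0.66). Both lie between PCD1 and the cluster, and their r with ASP3 was near 0.

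**Figure D4:**
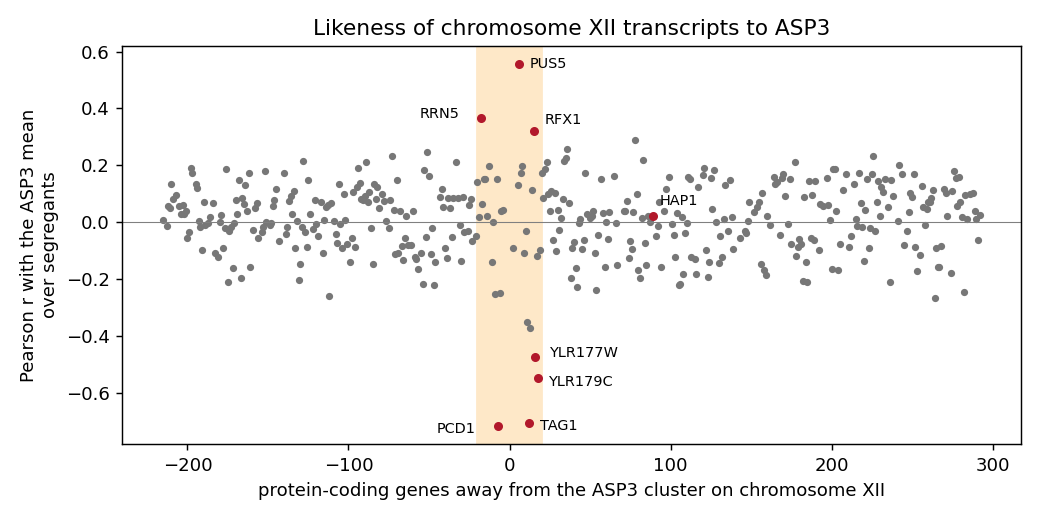
Pearson r of each measured chromosome XII transcript with the mean of the ASP3 copies over segregants (vertical), against its distance from the cluster counted in protein-coding genes (horizontal); the shaded band covers 20 genes on either side and red points are labelled. The 9 genes over 0.3 in absolute size all lie inside the band, and HAP1 lies close to 0.

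Genes that make, break or carry asparagine and glutamate were compared between the parents, as the metabolic setting of ASP3. Of 13 such genes 11 entered the fit: 8 were called higher in RM, 2 lower and 1 (DIP5, an acidic amino acid permease) was not called, with a median difference of 0.29, against 0.031 over all 2639 rows tested. The background shares are the 34.8% higher and 21.2% lower given above. ASP1, the intracellular asparaginase, measured −0.68, −0.52, −0.47, −0.57, −0.51 and −0.58 in RM replicates 1 to 6, against 0.33, 0.33, 0.18, 0.16 and 0.22 in the 5 BY replicates with a value. The groups did not overlap, and ASP1 was called lower in RM, with a difference of −0.80 (SE 0.048, limma adjusted p = 3.4e-08), smaller than that of any ASP3 copy. In the segregants it took values from −0.92 to 0.80, with medians of −0.18 in those nearer RM for ASP3 and −0.022 in those nearer BY.

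The asparagine synthetases moved little and in opposite directions. ASN1 was called higher in RM by 0.20 (SE 0.048, limma adjusted p = 0.0042) and ASN2 lower, with a difference of −0.15 (SE 0.032, limma adjusted p = 0.0017). ASN1 lost its call when only the first pair of each RM number was used (0.071, adjusted p = 0.35), and ASN2 when the Cy5 arrays stood alone (−0.11, adjusted p = 0.063). The synthetases are close relatives, as are the glutamate dehydrogenases below, and their rows may share signal.

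Larger differences came from glutamate and from amino acid uptake. GDH1, the main NADP-dependent glutamate dehydrogenase, averaged 1.66 ± 0.078 in RM and −0.30 ± 0.17 in BY (SD, n = 6 each), a difference of 1.96 (SE 0.072, limma adjusted p = 7.9e-11). GDH3, its relative, was higher by 1.63 (SE 0.089, limma adjusted p = 1.4e-08), and AGP1, a permease that takes up asparagine and glutamine, by 1.34 (SE 0.14, limma adjusted p = 3.6e-06). The BY group split by replicate number for some of these genes: AGP1 measured 0.13 and 0.040 in replicates 1 and 2 and −0.70 to −0.56 in replicates 3 to 6, and GDH3 0.19 and 0.028 against −0.33 to −0.30. RM lay at 0.83 to 1.00 for AGP1 and 1.42 to 1.56 for GDH3, above every BY replicate, and without BY replicates 1 and 2 the differences were 1.59 and 1.80. For the mean of the ASP3 copies the same omission gave −6.57, against −6.55 with all BY replicates. AAT2, the cytosolic aspartate aminotransferase, was higher by 0.44 and GLT1, glutamate synthase, by 0.29, with adjusted p of 3.9e-06 and 0.00012 in limma. GLN1, glutamine synthetase, and GNP1, a glutamine permease, were the other called members, at 0.39 and 0.23.

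Genes under nitrogen catabolite control, the class ASP3 belongs to, were mostly out of reach of the test. Of 29 genes 28 had a row and 7 entered the fit, of which 4 were called higher in RM, 0 lower and 3 (MEP3, PUT1 and CAR1) were not called in limma, with a median of 0.24; at an unadjusted p under 0.05 the counts were also 4 and 0. That is 57.1% of those tested, close to the 56% of all rows. The called genes were GAT1, an activator of the class (0.66, SE 0.12), PEP4, the vacuolar protease A (0.37, SE 0.10), UGA1, a transaminase of 4-aminobutyrate use (0.28, SE 0.059), and DAL2, an allantoicase (0.24, SE 0.054), with limma adjusted p of 0.00047, 0.0072, 0.0012 and 0.0018. BY replicates 1 and 2 again stood nearer to RM. PEP4 measured 0.17 and 0.24 in them and −0.27 to −0.23 in BY replicates 3 to 6, against 0.13 to 0.48 in RM, so that the groups overlapped, and those of UGA1 overlapped through BY replicate 2 (0.15, against an RM minimum of 0.12). GAT1 measured 0.24 and 0.27 in BY replicates 1 and 2 and DAL2 0.17 and 0.17, both just under the lowest RM replicates (0.27 and 0.21). Without BY replicates 1 and 2 the 4 genes kept their calls, with PEP4 at 0.53, GAT1 at 0.79, UGA1 at 0.34 and DAL2 at 0.30. The count rested on how missing BY arrays were treated: with values from either array 22 members entered, of which 14 were called higher and 3 lower in RM, against 52.1% called, 30.2% higher and 21.9% lower, among all 5067 rows of that fit. Members without a test with both arrays required lay on both sides. PUT4, the proline permease, measured 3.66 ± 0.55 in RM (SD, n = 6), against −0.086 and −0.067 in the 2 BY replicates with a value. UGA4, the permease for 4-aminobutyrate, measured −0.69 ± 0.22 in RM (SD, n = 6), against 0.032 ± 0.078 in BY (SD, n = 3), and its groups did not overlap. Among the 18 tested genes of both lists the lowest difference was that of ASP1.

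**Figure D5:**
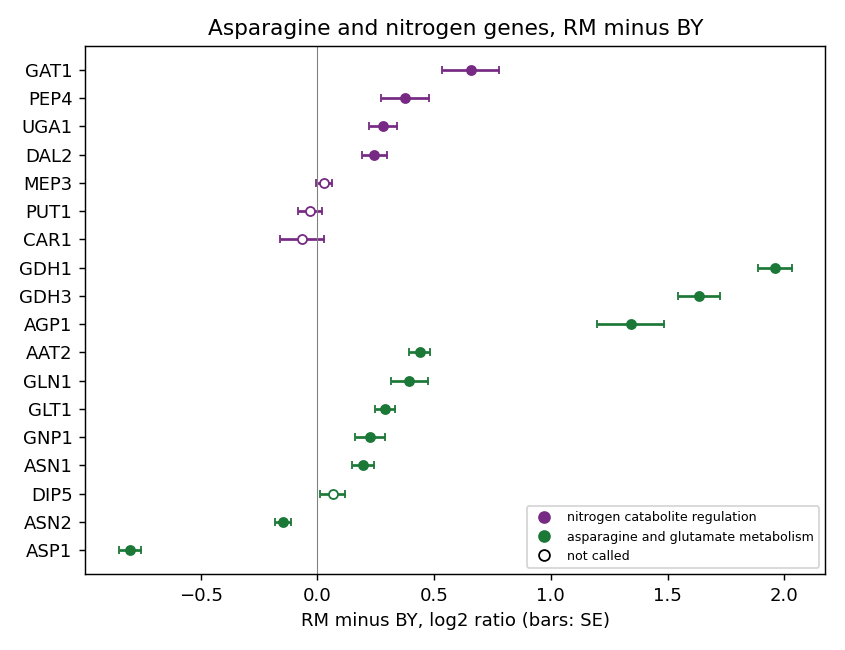
RM mean minus BY mean, as a log2 ratio with its standard error, for the tested genes of nitrogen catabolite control (purple, upper rows) and of asparagine and glutamate metabolism (green, lower rows), with open points for genes not called. GDH1 at 1.96 is the highest and ASP1 at −0.80 the lowest, and 12 of the 18 lie above 0 and are called.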

How the data were processed

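The deposited table holds log2 ratios that average 0 on every array, a centring by the authors; base and direction are not stated in the sources used here, and neither are the scanner, the spot filters and any background correction. Signs were turned so that values are own RNA over the BY4716 pool. A pair's value was the mean of its 2 arrays, missing where either lacked the row, and repeated pairs of an RM number were averaged first. Names came from the platform annotation (5645 of 7085 rows with 1 gene name), and gene order from the R64 gene table.

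Parents were compared with limma 3.58.1 (R 4.3.3; lmFit, eBayes, Benjamini-Hochberg adjusted p under 0.05), on rows lacking no more than 1 replicate of either parent and filled in 80% or more of the segregants. The spread behind the p-values is that between these samples and may be technical. Same-numbered RM and BY replicates deviated together, with r from 0.13 to 0.51 over rows in all 6 numbers. For replicates 5 and 6 the closest match in the other parent carried the number 6 and 5. The limma p-values given above come from the fit that ignores this pairing. A fit that took the numbers to pair the samples, with the replicate number as a block, was the alternative. Segregant classes, Fisher's exact tests and correlations used Python 3.11.15 and scipy 1.17.1. The fit was also run on simulated data with independent normal values. Those lack the shared deviation of same-numbered replicates, so that run says nothing about its effect on the p-values.

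The members and gene lists were chosen with earlier results of these data known. Named genes are the 4 copies; ASP1, ASN1 and ASN2; the called members of each list, at most 6, that had the smallest adjusted p; the 6 markers; the 10 highest and 5 lowest r with the ASP3 mean over segregants; and the 4 nearest measured named genes on each side of the cluster. Genes outside this rule (the frames beside the copies, RNR1, RNR4, GLN1, GNP1, PUT4, UGA4 and uncalled members) were named after their values were seen. Alternatives covered centring, scaling, each dye alone, values from either array, RM repeats, the fitted samples, filters, the class boundary, the rank correlation and each parental replicate left out.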

Additional observations from a re-analysis of the deposited data

Results flagged for a closer look

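In 32 groups of 4 to 6 parental replicates, 3 had an end value set apart by a gap that takes up most of the group's range; chance alone marks about 1 group in 20. ASP3-3 in RM replicate 6 measured −10.40, with the other 5 RM replicates between −7.72 and −6.85; that number has 1 pair of arrays. GDH1 in RM replicate 6 measured 1.82, with the others between 1.61 and 1.67. UGA1 in RM replicate 1 measured 0.41, with the others between 0.12 and 0.22.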

How the results depend on the processing

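Quantile normalization between pairs moved the RM minus BY difference to −4.44 for ASP3-1, −4.71 for ASP3-2, −5.58 for ASP3-3, −2.74 for ASP3-4 and −4.36 for their mean; the cause was not tested. Over the other alternatives the mean difference lay between −6.69 and −6.38, and between −6.65 and −6.43 when each parental replicate was left out. A class boundary at the widest gap put 99.1% of segregants nearer BY for ASP3-1, because that gap (−10.00 to −7.26) sets apart 1 strain. The share for the mean ran from 48.4% to 52.2% over 23 alternatives. The share with the same parent for HAP1 was 54.1% with quantile normalization, and for HO 50.4% with Cy3 alone and 50.5% without the segregants labelled 21 to 26; these crossed an equal split without passing any test.

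Calls between the parents numbered 2639 of 5067 rows with a value from either array, 2414 of 4515 with at least 3 values per parent, and 474 with BY, RM and segregants in 1 fit, whose spread includes that of the segregants. That fit called 4 of the asparagine and glutamate genes. For nitrogen catabolite genes the calls were 2 of 7 with quantile normalization, 12 of 16 with Cy5 alone, 9 of 16 with Cy3 alone, 17 of 22 with either array, 14 of 19 with at least 3 values per parent and 0 of 7 with 3 groups in 1 limma fit (1 higher at an unadjusted p under 0.05). Leaving out BY replicate 3 or BY replicate 5 gave 7 calls of 10 and of 11, as more members entered.

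Leaving out each parental replicate gave 1378 to 1628 calls over all rows, 10 to 11 asparagine and glutamate calls and 4 to 7 nitrogen catabolite calls. The replicate block gave 1566 calls over all rows, 10 and 4 in the lists, and changed no call of a named gene. ASN1 and DAL2 lost their call in 3 alternatives each, ASN2 and PEP4 in 2, and AAT2, GLT1, GAT1 and UGA1 in 1. Without BY replicates 1 and 2 the calls were 1897 of 2815 rows. That alternative and those without the 3 segregants of low array correlation or without those labelled 21 to 26 were chosen after seeing the data. Signal over background, which limits the depth of the lowest ratios, was not used here.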
